A study of Mus musculus with 6 samples.

Results

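The genes described here are the amino acid and neurotransmitter carriers of 7 solute carrier (SLC) families, Slc1a, Slc3a, Slc6a, Slc7a, Slc36a, Slc38a and Slc43a, in epithelial cells of the mouse large intestine. They were taken by their symbols, without the creatine carrier Slc6a8. This gave 59 of the 19533 genes measured. Expression was measured in live EpCAM+ intestinal epithelial cells, that is, cells with the epithelial surface protein EpCAM. There were 3 samples from germ-free HDAC3ΔIEC mice, whose intestinal epithelial cells lack the histone deacetylase HDAC3, and 3 from germ-free HDAC3FF mice, the floxed controls. All were of the C57BL/6 strain, and germ-free mice carry no microbiota. The sources used here do not give age, sex, the Cre line or whether animals were pooled. The design text calls the samples biological replicates, and 1 Affymetrix array was hybridised per sample.

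Amino acid carriers move substrates across the cell surface and the lysosomal membrane. In epithelia, apical carriers such as those of the SLC6 family take amino acids up from the lumen, basolateral exchangers of the SLC7 family pass them on, and a subset of SLC7 proteins work only when bound to a heavy chain of the SLC3 family. Several SLC6 and SLC1 members are best known from neurons, where they clear transmitters such as GABA, glycine, dopamine, serotonin and glutamate. SLC38A9 and SLC36A1 sit on lysosomes, where they take part in the signalling of amino acids to the growth kinase complex mTORC1.

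All values are deposited log2 signals of 1 probe set per gene. Probe sets differ in how strongly they bind, so a signal compares arrays for 1 gene and does not order genes by transcript amount. In a bulk sample, fewer cells of a type and less RNA per cell cannot be told apart. Array medians lay between 5.30 and 5.35. Hdac3 read 6.58, 6.22 and 6.00 on the HDAC3ΔIEC arrays and 6.96, 7.36 and 7.04 on the HDAC3FF arrays. The difference of -0.86 ± 0.17 (log2, SE) missed the threshold (limma adjusted p = 0.0937). The sources used here do not say whether the probes lie in the deleted exons, and probes elsewhere would check nothing. Epcam averaged 10.85 ± 0.11 in HDAC3ΔIEC and 10.91 ± 0.13 in HDAC3FF cells (SD, n = 3 each). Replicate 3 of either group correlated least with the other arrays of its group. HDAC3ΔIEC replicate 3 was the lowest of its group for 17 of the 22 carriers with a mean signal at or above that of the median gene (5.34). This is 77.3%, against 43% of all genes in that signal range. HDAC3ΔIEC replicate 1 was the highest of its group for 16 of the 22 (72.7%, against 27.5%). HDAC3FF replicate 1 was the lowest of its group for 14 (63.6%, against 39.1%) and HDAC3FF replicate 3 the highest for 13 (59.1%, against 39.6%).

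Of the 59 carriers, 1 had a limma adjusted p under 0.05, Slc38a9, which fell in HDAC3ΔIEC cells. Among all genes 0.701% had one, 0.333% as lower and 0.369% as higher, and no carrier rose. An adjusted p under 0.10 was reached by 3 carriers, Slc38a9, Slc7a11 and Slc38a2, and by 1.64% of all genes. At an unadjusted p under 0.05 there were 13 carriers, or 22.0%, against 11.2% of all genes. Of these carriers 6 were higher and 7 lower, where 5.38% of all genes were higher and 5.84% lower. Among the 22 carriers at or above the median gene in signal, 9 had such a p (40.9%), against 17.7% of all genes in that signal range. The groups did not overlap for 12 carriers (20.3%), 5 higher and 7 lower in HDAC3ΔIEC, against 16.2% of all genes, 8.45% higher and 7.7% lower. Among the 22 carriers at or above the median gene it was 5 (22.7%), against 19.8% of all genes in that range. The median log2 fold change of the carriers was 0.01, as was that of all genes, and the 30 positive and 29 negative fold changes were nearly even in number. Carriers with an unadjusted p under 0.05 lay on both sides within the Slc1a, Slc6a, Slc7a and Slc38a families. Without replicate 3 of both groups 4 carriers passed, Slc6a19 and Slc7a9 as higher and Slc38a9 and Slc1a1 as lower in HDAC3ΔIEC, while 744 of all genes did.

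**Figure D1:**
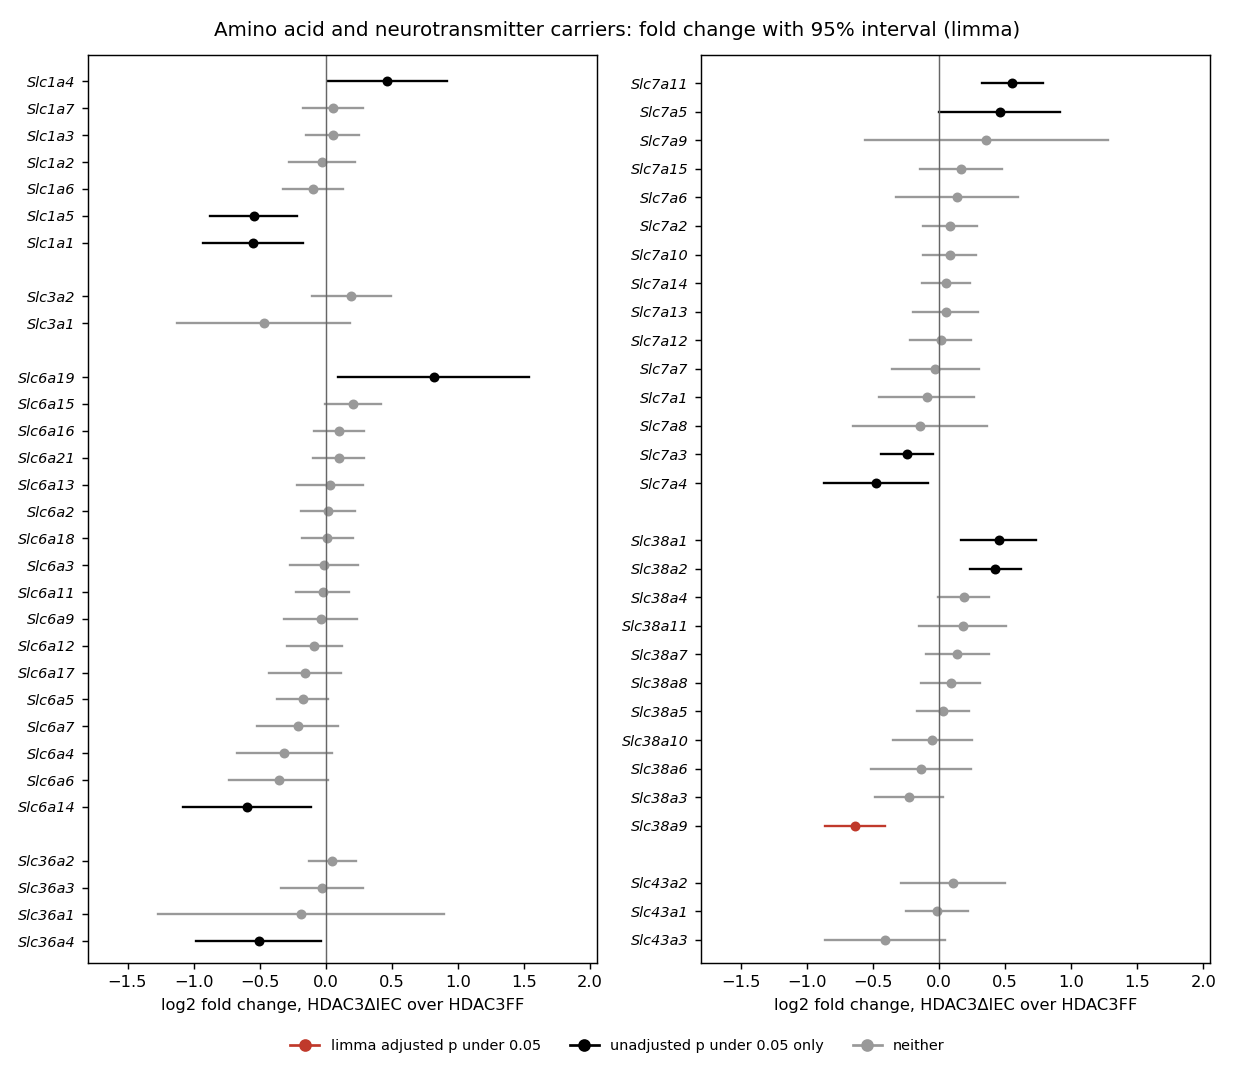
Log2 fold change of each of the 59 carriers, HDAC3ΔIEC over HDAC3FF (x axis), with its 95% interval from limma, grouped by SLC family and ordered by value within each family. Slc38a9 at -0.63 is the 1 gene with an adjusted p under 0.05, and the 12 further genes with an unadjusted p under 0.05 lie on both sides of 0.

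Slc38a9, which encodes the lysosomal arginine sensor that signals to mTORC1, read 6.43, 6.52 and 6.24 on the HDAC3ΔIEC arrays and 7.01, 7.02 and 7.06 on the HDAC3FF arrays. All 3 HDAC3ΔIEC values lay under all 3 HDAC3FF values, and the SD over the HDAC3FF arrays was 0.03. The level was 64.4% of that in HDAC3FF cells, or -0.63 ± 0.10 on the log2 scale (SE, 95% interval -0.86 to -0.41, limma adjusted p = 0.0436). For this gene alone an exact permutation test, two-sided, returned p = 0.1, which is the lower limit of the design. A dimmer probe set of the gene read 5.53, 5.68 and 5.90 in HDAC3ΔIEC, against 5.59, 5.93 and 6.05 in HDAC3FF cells, and its groups overlapped. That probe set's log2 fold change was -0.15 ± 0.15 (SE, 95% interval -0.51 to 0.20). With the mean of both probe sets the log2 fold change was -0.39 and the gene did not pass (limma adjusted p = 0.142). The call was also lost without any 1 of 5 arrays, all except HDAC3FF replicate 3 (limma adjusted p from 0.0443 to 0.154 over the 6 omissions).

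No other lysosomal carrier and no gene of the Slc36a family passed. Slc36a1, a proton-coupled carrier of small neutral amino acids, read 8.77, 8.37 and 6.91 in HDAC3ΔIEC, against 7.88, 8.66 and 8.07 in HDAC3FF cells. HDAC3ΔIEC replicate 3 was the lowest of all 6 arrays, and without it the log2 difference was 0.37, where all arrays gave -0.19 ± 0.46 (SE, limma adjusted p = 0.945). Slc36a4, a related carrier of proline and tryptophan, read 5.06, 4.95 and 4.89 in HDAC3ΔIEC, against 5.48, 5.04 and 5.91 in HDAC3FF cells. The lowest HDAC3FF array lay within the HDAC3ΔIEC values (log2 fold change -0.51 ± 0.20, SE, limma adjusted p = 0.411). It was -0.29 without HDAC3FF replicate 3 and -0.72 without HDAC3FF replicate 2. Slc38a7, a lysosomal exporter of glutamine and asparagine, averaged 6.02 ± 0.16 in HDAC3ΔIEC and 5.88 ± 0.04 in HDAC3FF cells (SD, n = 3 each), and Slc36a2 and Slc36a3 were below the median gene in signal and had fold changes of 0.05 and -0.03 on the log2 scale.

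The plasma membrane carriers of system A bring glutamine, alanine and other small neutral amino acids into cells together with sodium, and none of their genes passed. Slc38a2, whose product SNAT2 is raised in cells short of amino acids, read 10.29, 10.31 and 10.36 in HDAC3ΔIEC, against 9.80, 9.93 and 9.95 in HDAC3FF cells. The groups did not overlap and were 0.43 ± 0.08 apart on the log2 scale (SE, 95% interval 0.23 to 0.62), and missed the threshold (limma adjusted p = 0.0818). With array weights it did pass (limma adjusted p = 0.0427, range over all alternatives 0.0427 to 0.301). Slc38a1, the closely related SNAT1, read 8.17, 7.81 and 7.96 in HDAC3ΔIEC, against 7.40, 7.68 and 7.51 in HDAC3FF cells. Its groups did not overlap either (0.45 ± 0.12, SE, limma adjusted p = 0.188), but those of its dimmer probe set did, with means of 5.65 ± 0.31 in HDAC3ΔIEC and 5.57 ± 0.26 in HDAC3FF cells (SD, n = 3 each). Slc38a4, the third carrier of this transport system, was dim, at 4.16 ± 0.01 in HDAC3ΔIEC and 3.97 ± 0.09 in HDAC3FF cells. Its groups did not overlap (0.19 ± 0.08, SE, limma adjusted p = 0.465). Of the 11 Slc38a genes 1 fell and the other 10 did not pass, at a median of 0.09 on the log2 scale. Slc38a3, Slc38a5, Slc38a6, Slc38a8, Slc38a10 and Slc38a11 ranged from -0.23 to 0.18.

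In the Slc1a family no gene passed, and the neutral amino acid exchangers differed in direction from each other. Slc1a5, whose product ASCT2 exchanges glutamine for other neutral amino acids, read 9.21, 9.01 and 8.67 in HDAC3ΔIEC, against 9.44, 9.56 and 9.52 in HDAC3FF cells. Every HDAC3ΔIEC array lay below every HDAC3FF array (-0.55 ± 0.14, SE, limma adjusted p = 0.168). Slc1a4, whose product ASCT1 exchanges serine, alanine and cysteine, read 7.09, 6.52 and 6.72 in HDAC3ΔIEC, against 6.37, 6.57 and 6.00 in HDAC3FF cells. Its groups overlapped (0.47 ± 0.19, SE, limma adjusted p = 0.425). Slc1a1, the glutamate and aspartate carrier EAAC1, read 4.75, 4.84 and 4.91 in HDAC3ΔIEC, against 5.61, 5.53 and 5.01 in HDAC3FF cells. HDAC3FF replicate 3 was close to the HDAC3ΔIEC arrays, and the difference of -0.55 ± 0.16 (log2, SE, limma adjusted p = 0.231) became -0.74 without that array (limma adjusted p = 0.0192) and -0.77 without replicate 3 of both groups (0.0176). The 4 glutamate carriers known mainly from glia, neurons and retina, Slc1a2, Slc1a3, Slc1a6 and Slc1a7, had mean signals from 3.91 to 4.96 and log2 fold changes from -0.10 to 0.05.

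Slc7a11 encodes xCT, the light chain of the exchanger that brings in cystine for glutathione in return for glutamate. It read 4.23, 4.08 and 4.24 in HDAC3ΔIEC, against 3.73, 3.49 and 3.65 in HDAC3FF cells. The groups did not overlap, and the difference of 0.55 ± 0.10 (log2, SE, 95% interval 0.32 to 0.78) missed the threshold (limma adjusted p = 0.0670). It passed with an intensity trend (limma adjusted p = 0.0257) and with array weights (0.0434), in a range from 0.0257 to 0.216 over all alternatives. The probe set was dim, at the 19.4th percentile of all genes by mean signal, so these values lie near the floor of the arrays.

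Slc7a11, Slc38a2, Slc7a5 and Slc1a4 are among the known targets of ATF4, the transcription factor of the amino acid shortage response. These 4 are not a full list of its targets among the carriers, and they were grouped here after values were seen. All 4 had positive log2 fold changes (0.55, 0.43, 0.46 and 0.47), where the 59 carriers had 30 positive and 29 negative. ATF4 binds elements of the form TGATGNAA. The promoters of Slc7a11 and Slc1a4, which hold this motif, and of Slc38a9, the 1 called gene, which does not, are shown as RefSeq sequence of build GRCm38.p6, from 250 bases before to 50 bases after the annotated start. Capitals mark the motif on either strand.
Slc7a11, chr3:50443564-50443863, minus strand: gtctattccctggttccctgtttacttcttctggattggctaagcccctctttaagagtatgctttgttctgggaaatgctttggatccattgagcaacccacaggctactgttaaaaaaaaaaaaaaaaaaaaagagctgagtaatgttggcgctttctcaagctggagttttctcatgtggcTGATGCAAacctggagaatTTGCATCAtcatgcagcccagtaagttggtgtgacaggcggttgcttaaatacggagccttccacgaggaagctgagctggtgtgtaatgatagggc
Slc1a4, chr11:20332664-20332963, minus strand: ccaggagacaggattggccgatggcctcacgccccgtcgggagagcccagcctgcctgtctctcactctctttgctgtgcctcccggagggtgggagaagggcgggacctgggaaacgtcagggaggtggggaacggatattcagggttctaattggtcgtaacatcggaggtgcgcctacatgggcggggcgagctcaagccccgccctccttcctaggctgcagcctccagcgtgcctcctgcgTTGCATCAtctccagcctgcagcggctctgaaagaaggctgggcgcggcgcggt
Slc38a9, chr13:112660516-112660815, plus strand: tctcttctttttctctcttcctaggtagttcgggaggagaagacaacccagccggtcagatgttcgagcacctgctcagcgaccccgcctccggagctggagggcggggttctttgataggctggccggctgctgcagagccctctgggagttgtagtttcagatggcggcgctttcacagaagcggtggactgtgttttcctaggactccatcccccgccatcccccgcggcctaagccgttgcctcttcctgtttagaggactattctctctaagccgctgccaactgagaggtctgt
The Slc7a11 window holds 2 matches, 1 on each strand, and the Slc1a4 window holds 1 on the other strand, close to the start. Of the 43 carriers with a promoter in the table, 4 held the motif in any of their windows (9.30%), namely Slc1a4, Slc6a21, Slc7a7 and Slc7a11, against 4.51% of 27025 genes. A gene can have several windows, and by window it was 5 of 64 (7.81%), against 3.97% of 32851. Of the ATF4 targets named above, Slc38a2 was not among the carriers with the motif, and Slc7a5 had no promoter entry. Sequence outside the windows was not searched, so a gene without a match here can hold the motif elsewhere. The 4 carriers with the motif had log2 fold changes of 0.47, 0.10, -0.03 and 0.55, and none passed the test. A match of letters is a description of the sequence, and binding was not measured here.

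The heavy chain Slc3a2, also known as CD98, pairs with xCT and with the large neutral and y+L exchangers. It read 8.50, 8.61 and 8.26 in HDAC3ΔIEC, against 8.08, 8.35 and 8.37 in HDAC3FF cells, and the groups overlapped (0.19 ± 0.13, SE, 95% interval -0.10 to 0.49, limma adjusted p = 0.675). The value was 0.098 without HDAC3FF replicate 1. Among its 6 light chains, Slc7a5, the exchanger LAT1 for leucine and other large amino acids, read 7.25, 6.94 and 6.69 in HDAC3ΔIEC, against 6.20, 6.82 and 6.48 in HDAC3FF cells. HDAC3FF replicate 2 lay above the lowest HDAC3ΔIEC array (0.46 ± 0.19, SE, limma adjusted p = 0.441). Slc7a7, the basolateral exporter of cationic amino acids y+LAT1, read 8.08, 7.92 and 7.73 in HDAC3ΔIEC, against 7.68, 8.06 and 8.07 in HDAC3FF cells. The groups overlapped, and the 95% interval of the log2 fold change ran from -0.36 to 0.30. The light chains Slc7a6, Slc7a8 and Slc7a10 had log2 fold changes of 0.13, -0.14 and 0.08. No light chain passed, and Slc7a5 and Slc7a11 were the 2 of 6 with an unadjusted p under 0.05, which 11.2% of all genes had.

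**Figure D2:**
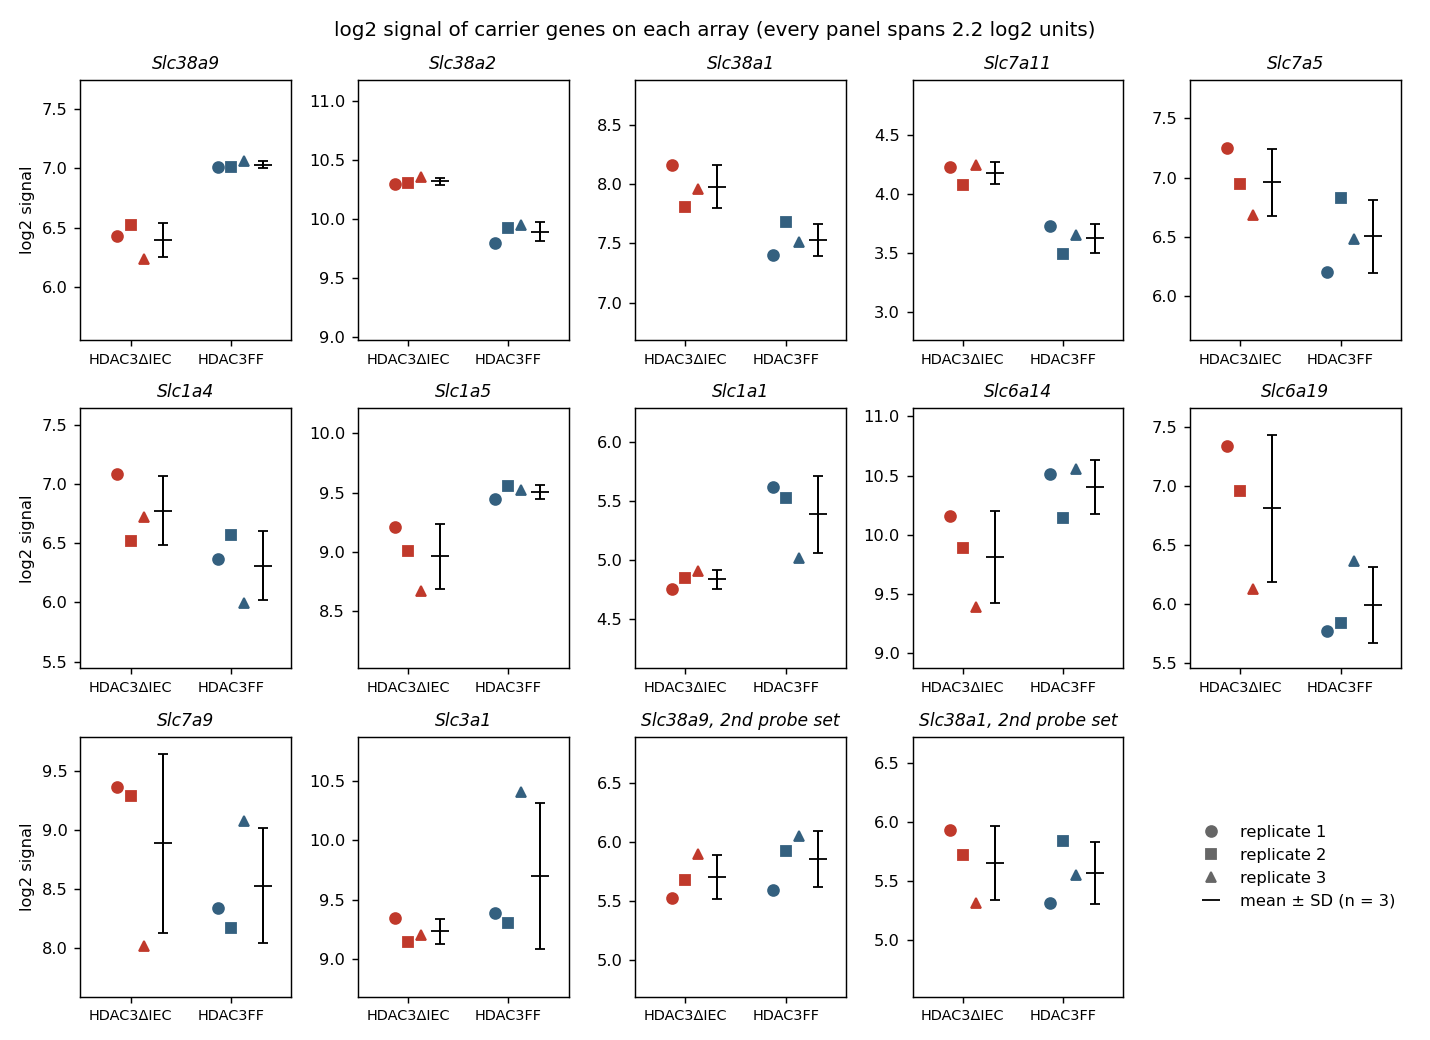
Log2 signal (y axis) on each array for 12 carriers, with the second probe set of Slc38a9 and of Slc38a1, HDAC3ΔIEC in red on the left and HDAC3FF in blue on the right of each panel. Symbols give the replicate number, which is not known to pair the samples, and bars give mean ± SD (n = 3). The groups do not overlap for Slc38a9, Slc38a2, Slc38a1, Slc7a11, Slc1a5 and Slc1a1, and HDAC3ΔIEC replicate 3 lies far below replicates 1 and 2 for Slc6a19 and Slc7a9.

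Among the carriers of the apical brush border no gene passed. Slc6a19, the sodium-coupled carrier of neutral amino acids B0AT1, had the largest fold change of all carriers and read 7.34, 6.96 and 6.13 in HDAC3ΔIEC, against 5.77, 5.84 and 6.36 in HDAC3FF cells. HDAC3ΔIEC replicates 1 and 2 lay above all controls and replicate 3 did not. The difference of 0.82 ± 0.31 (log2, SE, 95% interval 0.09 to 1.54) missed the threshold (limma adjusted p = 0.376). It also missed it without HDAC3ΔIEC replicate 3 (1.16, limma adjusted p = 0.127) and passed without replicate 3 of both groups (1.34, limma adjusted p = 0.00988), an omission chosen after seeing the data. Slc7a9, the light chain of the b0,+ exchanger for cystine and cationic amino acids, read 9.36, 9.28 and 8.01 in HDAC3ΔIEC, against 8.33, 8.17 and 9.08 in HDAC3FF cells. In each genotype replicate 3 stood against the other replicates, and the difference was 0.36 ± 0.39 (log2, SE, limma adjusted p = 0.840) over all arrays and 1.07 without replicate 3 of both groups (limma adjusted p = 0.00896). With 1 array left out it ran from 0.12 to 0.79 and never passed (lowest limma adjusted p = 0.360). Its heavy chain Slc3a1 read 9.34, 9.14 and 9.20 in HDAC3ΔIEC, against 9.38, 9.31 and 10.41 in HDAC3FF cells. The single high value was again HDAC3FF replicate 3 (-0.47 ± 0.28, SE, limma adjusted p = 0.626), and without it the log2 fold change was -0.11.

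Slc6a14, the broad neutral and cationic carrier ATB0,+ of the colon, read 10.15, 9.89 and 9.39 in HDAC3ΔIEC, against 10.51, 10.14 and 10.55 in HDAC3FF cells. The highest HDAC3ΔIEC array just reached the lowest HDAC3FF array (-0.59 ± 0.21, SE, 95% interval -1.08 to -0.11, limma adjusted p = 0.320), and without HDAC3ΔIEC replicate 3 the difference was -0.38. Slc6a6, the carrier of taurine, read 8.78, 8.56 and 8.22 in HDAC3ΔIEC, against 8.96, 8.99 and 8.68 in HDAC3FF cells (-0.36 ± 0.16, SE, limma adjusted p = 0.470), and without HDAC3ΔIEC replicate 3 the difference was -0.20. Replicate 3 was the lowest of its genotype for both groups of Slc6a6 and for the HDAC3ΔIEC group of Slc6a14. The array was also the lowest for a peptidase and a peptide carrier of this membrane. The aminopeptidase Anpep read 10.89, 9.88 and 8.35 in HDAC3ΔIEC, against 9.22, 9.38 and 9.12 in HDAC3FF cells, and the peptide carrier Slc15a1 read 9.42, 9.66 and 7.74 in HDAC3ΔIEC, against 9.68, 10.03 and 9.88 in HDAC3FF cells.

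**Figure D3:**
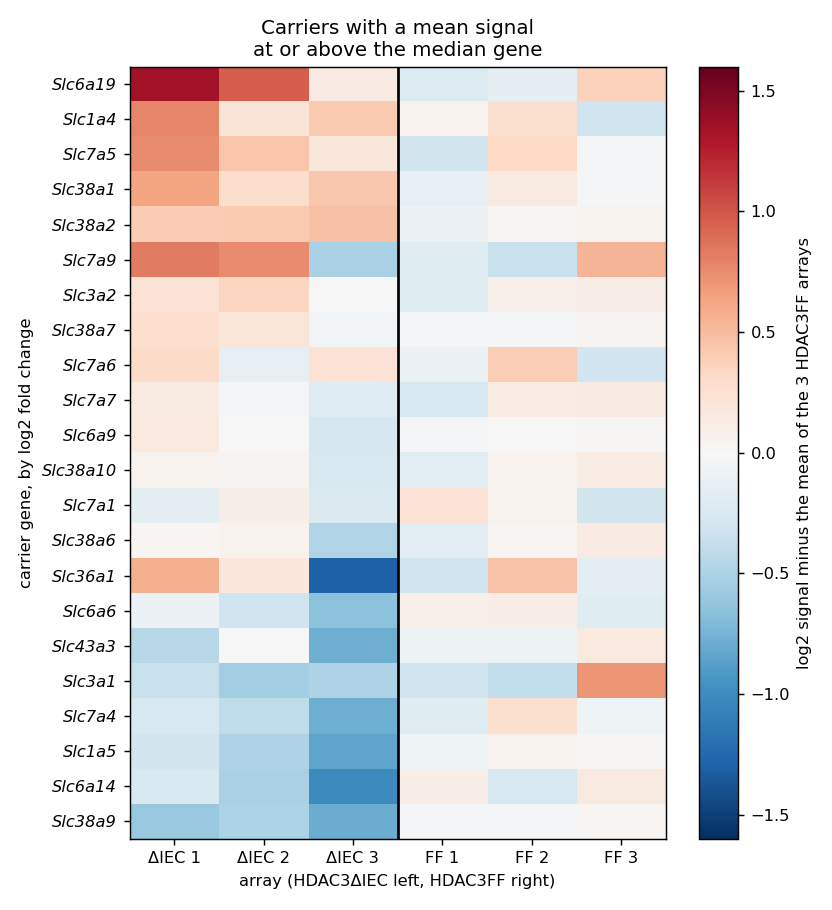
Log2 signal minus the mean of the 3 HDAC3FF arrays (colour, red higher, blue lower) for the 22 carriers with a mean signal at or above the median gene, one row per gene ordered by fold change and one column per array. Slc38a9 at the bottom is low on all 3 HDAC3ΔIEC arrays and Slc38a2 near the top is high on all 3, while Slc36a1 and Slc7a9 are low on HDAC3ΔIEC replicate 3 and high on replicates 1 and 2.

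The cationic carriers and their relatives gave no call. Slc7a1, the general carrier of arginine and lysine, read 6.76, 7.01 and 6.69 in HDAC3ΔIEC, against 7.15, 6.97 and 6.62 in HDAC3FF cells (95% interval of the log2 fold change -0.46 to 0.27). Slc7a4, a relative without established transport, averaged 5.56 ± 0.27 in HDAC3ΔIEC and 6.04 ± 0.23 in HDAC3FF cells (SD, n = 3 each). Slc7a3, an arginine carrier, averaged 4.05 ± 0.07 in HDAC3ΔIEC and 4.29 ± 0.07 in HDAC3FF cells. For both, all HDAC3ΔIEC arrays lay below all HDAC3FF arrays, with limma adjusted p of 0.327 and 0.312. Of the 15 Slc7a genes none passed, 10 had positive and 5 negative fold changes, and the median was 0.05 on the log2 scale. Slc7a2, Slc7a12, Slc7a13, Slc7a14 and Slc7a15 had values from 0.01 to 0.17. Of the 3 Slc43a genes, Slc43a3, a carrier of purine bases despite its family, read 5.30, 5.75 and 4.96 in HDAC3ΔIEC, against 5.67, 5.67 and 5.90 in HDAC3FF cells. Its groups overlapped (-0.41 ± 0.19, SE, limma adjusted p = 0.505), and the value was -0.22 without HDAC3ΔIEC replicate 3. The leucine carriers Slc43a1 and Slc43a2 had log2 fold changes of -0.02 and 0.11.

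None of the neurotransmitter carriers passed. The 7 carriers of monoamines, GABA and glycine, Slc6a2, Slc6a3, Slc6a4, Slc6a5, Slc6a9, Slc6a11 and Slc6a13, had log2 fold changes from -0.31 to 0.03. Only Slc6a9, a glycine carrier, was at or above the median gene in signal, at 6.39 ± 0.22 in HDAC3ΔIEC and 6.42 ± 0.02 in HDAC3FF cells (SD, n = 3 each, 95% interval of the log2 fold change -0.32 to 0.24). Slc6a4, the serotonin carrier, read 4.74, 4.79 and 4.66 in HDAC3ΔIEC, against 4.91, 5.40 and 4.82 in HDAC3FF cells. The groups did not overlap, by a narrow gap (-0.31 ± 0.15, SE, limma adjusted p = 0.524). Slc6a5, which was dim, averaged 3.97 ± 0.08 in HDAC3ΔIEC and 4.14 ± 0.03 in HDAC3FF cells (SD, n = 3 each). Its groups did not overlap either (-0.18 ± 0.08, SE, limma adjusted p = 0.492). These were 2 of the 7 (28.6%), against 16.2% of all genes. The remaining Slc6a genes Slc6a7, Slc6a12, Slc6a15, Slc6a16, Slc6a17, Slc6a18 and Slc6a21 had mean signals from 3.39 to 5.07 and log2 fold changes from -0.21 to 0.21.

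Genes around the carriers were read from 6 lists. Of 23 measured genes of the amino acid shortage response, Asns, asparagine synthetase, rose to 8.35, 8.41 and 8.77 in HDAC3ΔIEC, against 7.43, 7.75 and 7.48 in HDAC3FF cells (0.96 ± 0.14, SE, limma adjusted p = 0.0418), none fell and 22 did not pass. The median of the list was 0.31 on the log2 scale, against 0.01 for all genes and 0.01 for the carriers, and 14 members had an unadjusted p under 0.05, 12 higher and 2 lower, against 11.2% of all genes and 17.7% of those at or above the median gene, where 21 of the 23 lay. Atf4 itself averaged 9.35 ± 0.12 in HDAC3ΔIEC and 9.32 ± 0.17 in HDAC3FF cells (SD, n = 3 each). None of the 24 measured genes of amino acid sensing and mTORC1 passed, and their median was -0.01. The smallest p there were those of Lamtor1, a subunit of the lysosomal Ragulator scaffold (0.48 ± 0.11, SE, limma adjusted p = 0.122), and Castor2, a homologue of the arginine sensor Castor1 (-0.79 ± 0.31, limma adjusted p = 0.399).

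Of 21 measured genes of glutamine, arginine and branched-chain metabolism, Gpt, the cytosolic alanine aminotransferase, rose (1.36 ± 0.17, SE, limma adjusted p = 0.0276). None fell and 20 did not pass, at a median of -0.02. Of the 21, 7 had an unadjusted p under 0.05, 4 higher and 3 lower. That compares with 11.2% of all genes and 17.7% of those at or above the median gene, where 18 of the 21 lay. Gpt2 was lower on all 3 HDAC3ΔIEC arrays and missed the threshold (-0.61 ± 0.12, SE, limma adjusted p = 0.0908). None of the 14 other carriers of amino acids, peptides and amines passed (median -0.09). The smallest p there were those of the peptide carriers Slc15a1 (-0.92 ± 0.46, SE, limma adjusted p = 0.537) and Slc15a2 (-0.32 ± 0.20, limma adjusted p = 0.665). None of the 8 measured partner proteins and peptidases passed, with the metalloproteinase subunit Mep1a at -0.97 ± 0.19 (limma adjusted p = 0.0818) and the dipeptidase Dpep1 at 0.58 ± 0.19 (limma adjusted p = 0.290). Of 9 measured genes of serotonin and other amines, Maoa, the monoamine oxidase that degrades serotonin, rose (0.65 ± 0.10, SE, limma adjusted p = 0.0452). None fell and 8 did not pass, at a median of -0.09. Of the 9, 5 had an unadjusted p under 0.05, 2 higher and 3 lower. That compares with 11.2% of all genes and 17.7% of those at or above the median gene, where 6 of the 9 lay. Ddc, Aoc1 and Maob were lower on all 3 HDAC3ΔIEC arrays than on any HDAC3FF array. Their log2 fold changes were -0.48, -1.34 and -1.44 (limma adjusted p = 0.0941, 0.115 and 0.163).

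**Figure D4:**
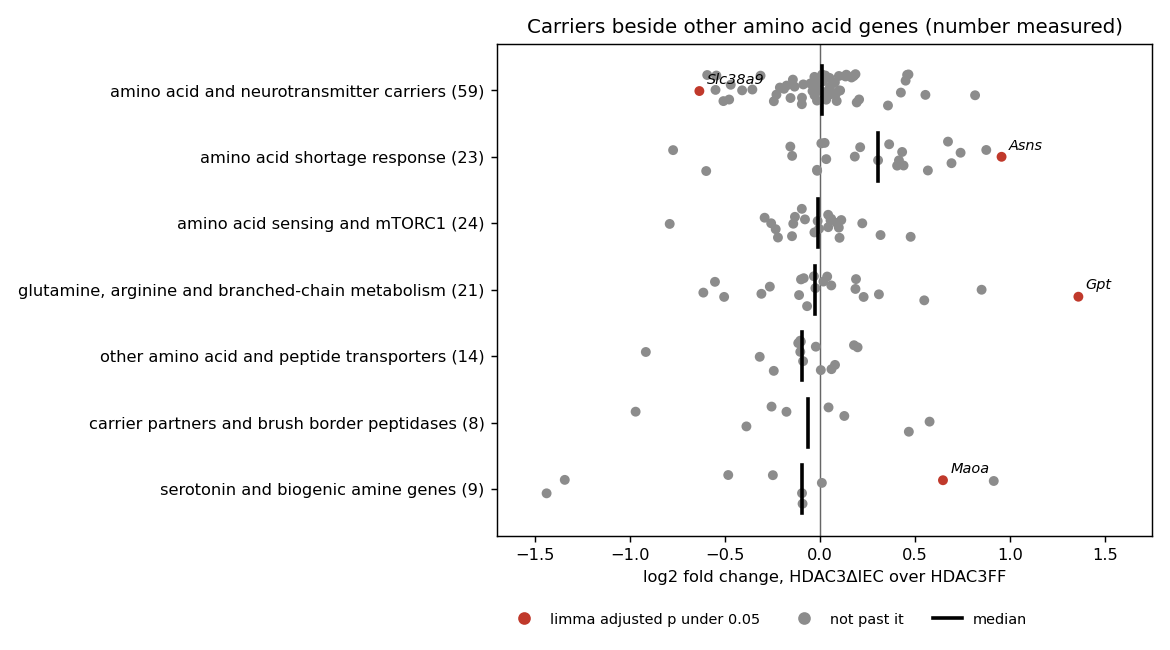
Log2 fold change, HDAC3ΔIEC over HDAC3FF (x axis), of the carriers and of 6 lists of related genes, with the number measured in brackets. Each point is a gene, red with a limma adjusted p under 0.05, vertical lines are medians, and points are spread vertically at random within a list. The carriers centre on 0.01 and the amino acid shortage response on 0.31, and the 4 named genes are Slc38a9, Asns, Gpt and Maoa.

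Markers of other cells were read beside these values. Of 11 enteroendocrine markers 2 rose, Insl5 and Pyy, all 11 had positive fold changes, and their summed linear signal ran from 8478 to 10724 on the HDAC3ΔIEC arrays and from 2642 to 5131 on the HDAC3FF arrays. Its part in the carrier values was not tested. The enteroendocrine marker Tph1, which makes serotonin, averaged 9.05 ± 0.22 in HDAC3ΔIEC and 8.13 ± 0.58 in HDAC3FF cells (SD, n = 3 each, limma adjusted p = 0.246). Of 10 myeloid markers 1 fell, C1qa, where 0.333% of all genes did. The sum of the 10 markers ran from 399 to 460 in HDAC3ΔIEC and from 511 to 587 in HDAC3FF. Their median log2 fold change was -0.05, and C1qb (0.07) and C1qc (-0.11), which encode the partner chains of C1qa, did not pass. Cd14, the brightest of the 10 and so the largest part of the sum, was at -0.40 with overlapping groups (limma adjusted p = 0.424). Cd68 read higher on all 3 HDAC3ΔIEC arrays (0.51, limma adjusted p = 0.174). None of the 10 epithelial, 5 goblet, 6 tuft, 10 T and NK, 7 B and plasma cell, 10 fibroblast and muscle, 7 endothelial and 8 neuron and glia markers measured passed. Their summed signals overlapped between the groups except those of neurons and glia, at 246 to 277 in HDAC3ΔIEC and 207 to 240 in HDAC3FF. Among these 8, the log2 fold change was largest for Ret (0.60, limma adjusted p = 0.106) and for Snap25, the brightest (0.32, limma adjusted p = 0.581). Glial Sox10 and Gfap, at -0.05 and 0.10, read 4.80 and 3.92 on average, below the median gene.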

How the data were processed

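Per the labels' protocols, Trizol served to isolate total RNA, and the label was biotin. The deposited values are log2 signals of 24939 probe sets, as their range shows. The submitters' processing notes name Affymetrix Power Tools. Version, background correction, normalization and filters: not given in the sources used here. No mark shows which signals lie below background.

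Symbols came from the platform annotation, and 21105 probe sets named 1 gene. Of these, 21022 were matched to RefSeq by Entrez number, and no symbol changed. Each gene was read from its brightest probe set by the mean of 6 arrays (2 of the 59 carriers have 2 probe sets). The 3 HDAC3ΔIEC and 3 HDAC3FF arrays were fitted with limma 3.58.1 in R 4.3.3 (lmFit, eBayes, no covariate, two-sided), with Benjamini-Hochberg adjustment over 19533 genes. The number of arrays limits precision. The intervals are not adjusted for multiple tests. The fit was also run on simulated data, as a check of the code. That simulation had independent noise and no deviation of a whole array, so it does not bear on the calls of single carriers here.

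The members and gene lists were chosen with earlier results of these data known. Array values are given for carriers with an adjusted p under 0.05, with an unadjusted p under 0.05 and an absolute log2 fold change of at least 0.5, for the 10 highest mean signals, for the smallest p of each family and for Slc3a1 and Slc3a2. In other lists, called genes or else the 2 with the smallest p are named. Other genes and the promoter motif were chosen after values were seen. Among these genes are Slc1a4, Slc7a5, Slc7a1, Slc6a4, Slc6a5, Anpep, Atf4, Gpt2, Ddc, Aoc1, Maob, Tph1, Sst, Cd14, Ret, Snap25, Sox10 and Gfap.

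The sample titles give replicate numbers and no pairing, and the main fit treated the samples as unpaired. The deviations of same-numbered arrays from their group means correlated at -0.02, -0.07 and -0.20 over genes. For arrays with different numbers it was -0.21 to 0.20. Such correlations cannot tell whether samples were matched. Other settings tried were an intensity trend, a replicate block, a robust prior, array weights, quantile normalization, centring, 2 filters on dim genes, the mean of all probe sets, adjustment over all probe sets, a looser threshold, omission of each array and, chosen after seeing the data, omission of replicate 3 of both groups.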

Additional observations from a re-analysis of the deposited data

How the results depend on the processing

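The call of Slc38a9 (log2 fold change -0.63, limma adjusted p = 0.0436) remained with a robust prior, array weights, quantile normalization, either filter on dim genes, and without HDAC3FF replicate 3 or replicate 3 of both groups. It was lost with an intensity trend or adjustment over all probe sets (both -0.63, limma adjusted p = 0.0639 and 0.0553), centring of arrays (-0.62, 0.0559) and the mean of its probe sets (-0.39, 0.142), and without each of the other 5 arrays (-0.70 to -0.56 over all 6 omissions). The replicate block gave -0.63 with a limma adjusted p of 0.151 and 0 carriers called, as against 12 of all genes. Whether the numbers pair samples is not known. The direction of Slc38a9 was lower in every alternative run.

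The number of carriers called, 1 here, was 0 with centring, with the mean of probe sets and with adjustment over all probe sets, 3 with array weights and at an adjusted p under 0.10 (Slc38a2, Slc38a9 and Slc7a11), 0 to 2 with 1 array left out, and 4 without replicate 3 of both groups. It was 1 with an intensity trend, but the gene was Slc7a11. Of all genes, 137 were called here, 178 with an intensity trend, 357 with array weights and 321 at an adjusted p under 0.10. With 1 array left out 13 to 430 of all genes were called, and 744 without replicate 3 of both groups. The carriers' median of 0.01 was -0.029 with genes under the 25th percentile left out and -0.045 with those under the median left out. The number of carriers with groups that do not overlap, 12 here, was 5 of 22 with genes under the median left out. It was 17 to 22 of 59 with 1 array left out and 27 without replicate 3 of both groups. The groups did not overlap for 16.2% of all genes here and for 19.8% of those at or above the median gene. For all genes it was 23.6% to 31.7% with 1 array left out and 47.3% without replicate 3 of both groups. Leaving out arrays can only keep or raise the number of genes without overlap, and leaving out genes can only keep or lower it. What else moved these counts was not tested.

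Slc36a1, at -0.19 here, changed sign and was 0.084 with array weights, 0.37 without HDAC3ΔIEC replicate 3, 0.04 without HDAC3FF replicate 2 and 0.30 without replicate 3 of both groups (-0.57 to 0.37 with 1 array left out). Slc7a7, at -0.03 here, was 0.062 with array weights, 0.061 without HDAC3ΔIEC replicate 3, 0.03 and 0.04 without HDAC3FF replicates 2 and 3 and 0.13 without replicate 3 of both groups (-0.16 to 0.061 with 1 array left out). No value of either gene passed, and the cause was not tested. The other 13 named carriers kept their direction in every alternative run. Signals below background are not marked, so which of the 37 carriers below the median gene lie there is not known.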
